A study of Homo sapiens with 4 samples.

Results

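The response to silencing of Efp was compared gene by gene between 2 endometrial cancer cell lines, and 38 of 9209 ranked genes differed between siEfp and siControl in 1 line only or in opposite directions in the lines. For each gene the siEfp minus siControl difference of HEC-1A cells was subtracted from that of Ishikawa cells, and the result is called the line difference here. All values are log2 signals, so that a difference of 1 is 2-fold, and a negative line difference means that the gene was lower, relative to its own control, in Ishikawa than in HEC-1A. Of 18417 genes measured, the 9209 with a mean signal over the 4 arrays of at least 6.31, the median of all genes, were ranked. A gene was placed in the group of 1 line only when its difference was at least 1 in size in that line and under 0.3 in the other, and in the opposite group when the differences had opposite signs and were at least 0.5 in size in both lines.

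The study silenced Efp by siRNA to ask what the protein does in endometrial cancer cells, and hybridised 1 array for each of 4 conditions. Ishikawa cells, which are ERα-positive and come from a well-differentiated tumor of the endometrium, received siControl, a non-targeting duplex, or siEfp. HEC-1A cells, which are ERα-negative and come from a moderately differentiated one, received siControl or siEfp as well. RNA of the Ishikawa arrays was collected 48 h after transfection with duplex #A of 2 Efp duplexes, while the sources used here do not give the duplex and the time of the HEC-1A arrays, so that line, duplex and time cannot be told apart. Each line stands for 1 tumor, and with 1 array per condition no difference below has a replicate check or a test.

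Efp is the product of TRIM25, an E3 ubiquitin ligase that is induced by estrogen through the estrogen receptor. The protein is known for marking 14-3-3σ, a brake on the cell cycle, for degradation, and for activating the RNA sensor RIG-I in antiviral signaling. NF-κB, the transcription factor family that drives inflammatory and survival genes, is one of the pathways downstream of such sensors.

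The targeted transcript was lower to a similar degree in both lines. The TRIM25 signal was 9.42 with siControl and 7.96 with siEfp in Ishikawa, and 9.50 and 7.93 in HEC-1A. The differences were -1.46 and -1.57, and the line difference of 0.11 put TRIM25 among the genes that did not separate the lines. SFN, which encodes 14-3-3σ, differed by 0.31 in Ishikawa and by 0.43 in HEC-1A. ESR1, the gene of ERα, had signals of 6.91 and 6.65 in Ishikawa and of 4.45 and 4.77 in HEC-1A. That is the order of the ERα status given by the study, and ESR1 was not ranked. Of 11 measured epithelial markers, 11 reached the all-gene median in the Ishikawa control array and 5 in that of HEC-1A, and their summed level was 14.08 and 12.81 on the log2 scale. HEC-1A kept high signals of the simple keratins KRT8, at 11.40, and KRT18, at 11.77, but E-cadherin (CDH1) stood at 4.07 against 10.22 in Ishikawa. Of 24 stromal, endothelial and immune markers, 1 reached the median in each Ishikawa array and 3 in each HEC-1A array.

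Most genes that were 2-fold lower in Ishikawa were lower in HEC-1A too. In Ishikawa, 108 of the 9209 ranked genes (1.17%) were lower with siEfp by 2-fold or more, and 15 (0.163%) were higher by as much. In HEC-1A the same held for 41 genes that were lower (0.445%) and 10 that were higher (0.109%). Of the 108 genes, 30 were also 2-fold lower in HEC-1A, 58 were lower there by 0.3 to 1, and 20 differed there by less than 0.3. Their HEC-1A differences had a median of -0.71, and 103 of the 108 were below 0. In the reverse direction, the 41 genes 2-fold lower in HEC-1A were below 0 in Ishikawa without exception, with a median of -1.26. Of all ranked genes, 54.4% were below 0 in Ishikawa and 47.1% in HEC-1A. Among genes that were higher, 2 of 15 in Ishikawa and 2 of 10 in HEC-1A were 2-fold higher in both lines.

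Over the ranked genes the line difference was centred at -0.05, and the middle 95% lay between -0.64 and 0.52. It was -1 or lower for 38 genes (0.413%) and 1 or higher for 14 (0.152%). These are not the same as the 38 genes of the response groups, which were chosen by the differences within the lines. The SD of the differences was 0.32 in Ishikawa and 0.27 in HEC-1A, and the differences of the lines correlated across genes at r = 0.52 over 9209 genes, which are not independent and were normalized together. The members' line differences were 0.73 to 1.86 in size, which follows from how they were chosen. At the thresholds, TNFRSF10D stood just inside at a line difference of -1.01 and DAAM1 just outside at -0.99. On the other side AKR1C2 stood at 1.002 and AFAP1L2 just below it at 0.9996. Of the genes lower in Ishikawa, GPD1L was just inside the group of 1 line with a size of 0.29 in HEC-1A, and TMTC2 just outside with 0.31. EMX1 was the dimmest ranked gene, and ADAM33 lay just under the median signal.

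**Figure D1:**
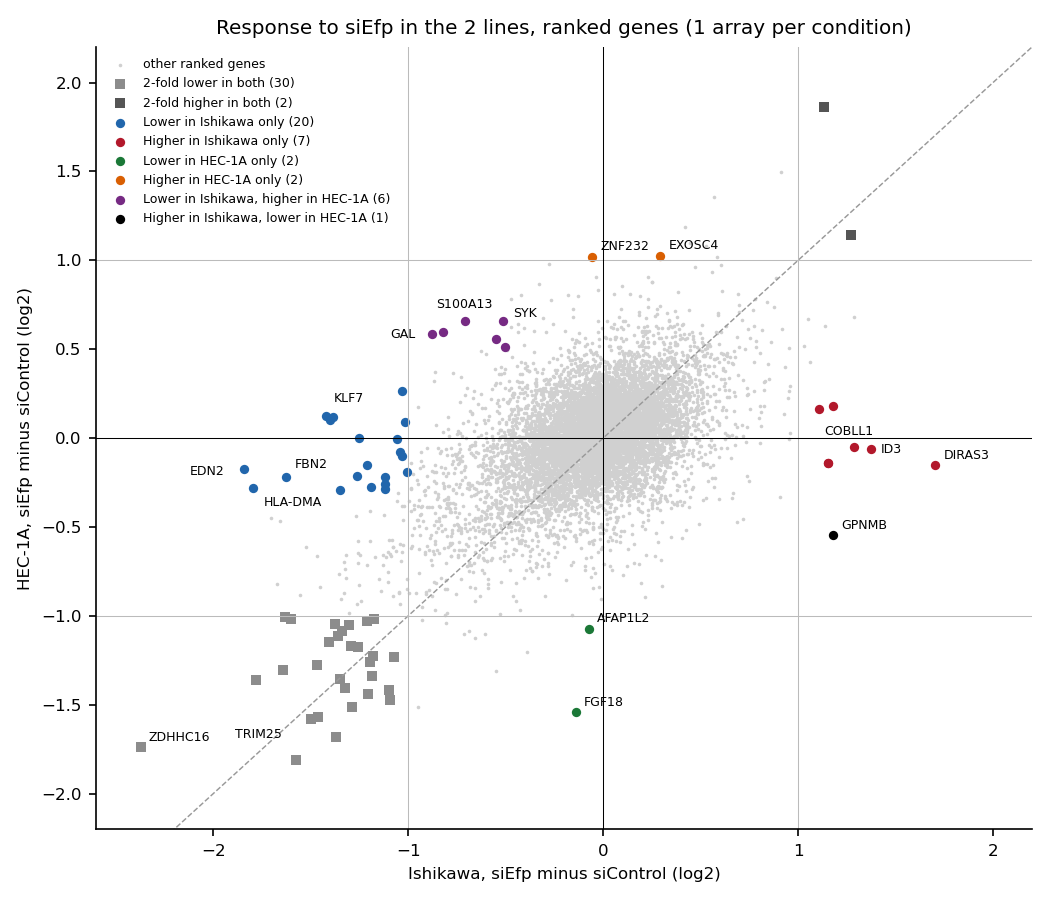
Each point is 1 of 9209 ranked genes, placed by its siEfp minus siControl difference in Ishikawa (x axis, log2) and in HEC-1A (y axis, log2), with 1 array per condition. Blue points are the 20 genes lower in Ishikawa only and red points the 7 higher in Ishikawa only, green and orange points the 2 lower and the 2 higher in HEC-1A only, and purple and black points the 7 with opposite differences, while the grey squares are 2-fold in both lines and the dashed line marks equal differences.

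The 20 genes lower in Ishikawa only had Ishikawa differences of -1.85 to -1.004, with a median of -1.20, and HEC-1A differences of -0.29 to 0.26, with a median of -0.16. They covered secreted and matrix proteins, membrane and junction proteins, antigen presentation, nuclear factors, metabolic enzymes and 1 microRNA gene. For 12 of the 20 the HEC-1A control signal reached the all-gene median, which is not a call of detection. Of these 12, GPD1L and CLDN16 were close to the median, with HEC-1A signals of 6.44 and 6.15 and of 6.71 and 6.42. For the other 8, which were EDN2, KLF7, HLA-DMA, FBN2, HAPLN3, CST6, DHRS3 and TSPAN9, it was below the median, where RMA compresses differences, and what this contributes to their small HEC-1A differences was not tested.

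Among the secreted proteins, EDN2 had the lowest line difference of all ranked genes. EDN2 encodes endothelin-2, a vasoactive peptide, and its signal was 8.97 with siControl and 7.13 with siEfp in Ishikawa, and 6.07 and 5.90 in HEC-1A. The differences were -1.85 and -0.17, which gave a line difference of -1.67. Its relative EDN1, which encodes endothelin-1, had signals of 9.78 and 8.53 in Ishikawa and of 5.82 and 4.91 in HEC-1A. EDN1 was thus lower in both lines, by differences of -1.24 and -0.91, and the endothelin genes differed in how far the lines parted. CST6, which encodes cystatin E/M, an inhibitor of cysteine proteases, had signals of 7.74 and 6.69 in Ishikawa and of 5.49 and 5.48 in HEC-1A. Matrix genes of the group were FBN2, which encodes the microfibril protein fibrillin-2, and HAPLN3, a link protein of hyaluronan and proteoglycans. FBN2 had signals of 9.29 and 7.67 in Ishikawa and of 4.26 and 4.05 in HEC-1A, which is far below the median of all genes. Its mean signal of 6.32 was just above the ranking filter, and FBN2 left the group when the brightest probe set of each gene was used and with a limit of 0.2 in the other line. HAPLN3 had signals of 8.43 and 7.17 in Ishikawa and of 5.57 in both HEC-1A arrays.

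The membrane proteins included several whose control signal was as high in HEC-1A as in Ishikawa. CA12 encodes a membrane-bound carbonic anhydrase known as an estrogen-responsive gene in breast cancer, and its signals were 9.62 and 8.23 in Ishikawa and 10.00 and 10.11 in HEC-1A. The differences of -1.39 and 0.12 made CA12 the member with the lowest line difference, -1.50, among the 12 with a HEC-1A control signal at or above the median. TAS2R4, a bitter taste receptor, had signals of 7.34 and 5.95 in Ishikawa and of 7.02 and 7.12 in HEC-1A, and its line difference was -1.50 as well. CLDN1, a structural claudin of tight junctions, was bright in all 4 arrays, at 10.55 and 9.52 in Ishikawa and at 11.66 and 11.56 in HEC-1A. CLDN16, a claudin known for magnesium transport, had signals of 8.84 and 7.72 in Ishikawa and of 6.71 and 6.42 in HEC-1A, so that its HEC-1A difference of -0.29 was close to the limit. TSPAN9, a tetraspanin, differed by -1.12 in Ishikawa and by -0.22 in HEC-1A. The transporters SLC35H1, also named SLC35C2, and MFSD12 differed by -1.02 and -1.12 in Ishikawa and by 0.09 and -0.26 in HEC-1A.

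A pair of members belongs to antigen presentation by class II HLA molecules. HLA-DMA encodes the α chain of HLA-DM, which loads peptides onto class II molecules, and its signals were 7.67 and 5.87 in Ishikawa and 6.23 and 5.95 in HEC-1A. The 3 probe sets of HLA-DMA, 2 of them with identical values, gave Ishikawa differences of -1.75 and -1.82 and HEC-1A differences of -0.31 and -0.26. RFX5, a subunit of the factor that binds class II promoters, had signals of 7.44 and 6.18 in Ishikawa and of 8.24 and 8.03 in HEC-1A. Both genes left the group with a limit of 0.2 in the other line. HLA-DMA also left it when the HEC-1A differences were scaled to the SD of Ishikawa. The partner chain HLA-DMB and the class II regulator CIITA were dim, with control signals of 4.57 and 5.05 in Ishikawa and of 5.08 and 4.94 in HEC-1A, and neither was ranked. The list of antigen presentation genes does not hold RFX5. Of its 19 measured genes, 6 were ranked, and HLA-DMA was the 1 gene among them that was 2-fold lower in Ishikawa.

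Nuclear factors in the group were KLF7, RFX5, ETS2 and MYC. KLF7, a zinc finger factor of the Krüppel-like family, had signals of 8.50 and 7.07 in Ishikawa and of 5.27 and 5.40 in HEC-1A, a line difference of -1.55. ETS2, an ETS family factor downstream of Ras and MAP kinase signaling, had signals of 8.05 and 6.86 in Ishikawa and of 8.57 and 8.30 in HEC-1A. It was thus similar in level in the control arrays and parted by differences of -1.19 and -0.27. ETS2 left the group with a limit of 0.2 in the other line and with HEC-1A differences scaled to the SD of Ishikawa. MYC, the growth factor-induced driver of ribosome and cell-cycle genes, had signals of 9.67 and 8.67 in Ishikawa and of 10.67 and 10.48 in HEC-1A. Its Ishikawa difference of -1.004 lay at the threshold, its HEC-1A difference was -0.19, and a second quantile normalization took it out of the group. In contrast to ETS2, the related factor ETS1 had signals of 5.80 and 6.02 in Ishikawa and of 8.59 and 7.69 in HEC-1A, so that its line difference was 1.11.

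Among the enzymes, BRCC3, a deubiquitinase specific for K63-linked chains in DNA damage and immune signaling complexes, had signals of 7.10 and 5.88 in Ishikawa and of 8.13 and 7.97 in HEC-1A. Chains of this type are also the form that Efp is known to build on RIG-I. GPD1L, a relative of glycerol-3-phosphate dehydrogenase, differed by -1.35 in Ishikawa and by -0.29 in HEC-1A. DHRS3, which reduces retinal to retinol, differed by -1.04 and -0.08. GPD1L left the group when the differences were centred on their median, and DHRS3 when the arrays were normalized again.

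MIR21 was the only microRNA gene in the group, and its mature product is shown since its seed defines what it can pair with. The probe set reads the RNA of the locus, not the mature microRNA. In RefSeq GRCh38.p14 the 5p product lies at chr17:59841273-59841294 on the plus strand, and the seed, bases 2 to 8, is in capitals.
hsa-miR-21-5p: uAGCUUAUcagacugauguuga
The MIR21 signal was 6.40 with siControl and 5.36 with siEfp in Ishikawa, and 7.54 and 7.80 in HEC-1A. The differences were -1.03 in Ishikawa and 0.26 in HEC-1A. MIR21 left the group with a limit of 0.2 in the other line and with HEC-1A differences scaled to the SD of Ishikawa. The MIR21 gene lies within the span of VMP1 on chromosome 17, and VMP1 itself had signals of 11.59 and 11.53 in Ishikawa and of 11.34 and 11.30 in HEC-1A, so that the host transcript did not part the lines in the same way.

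**Figure D2:**
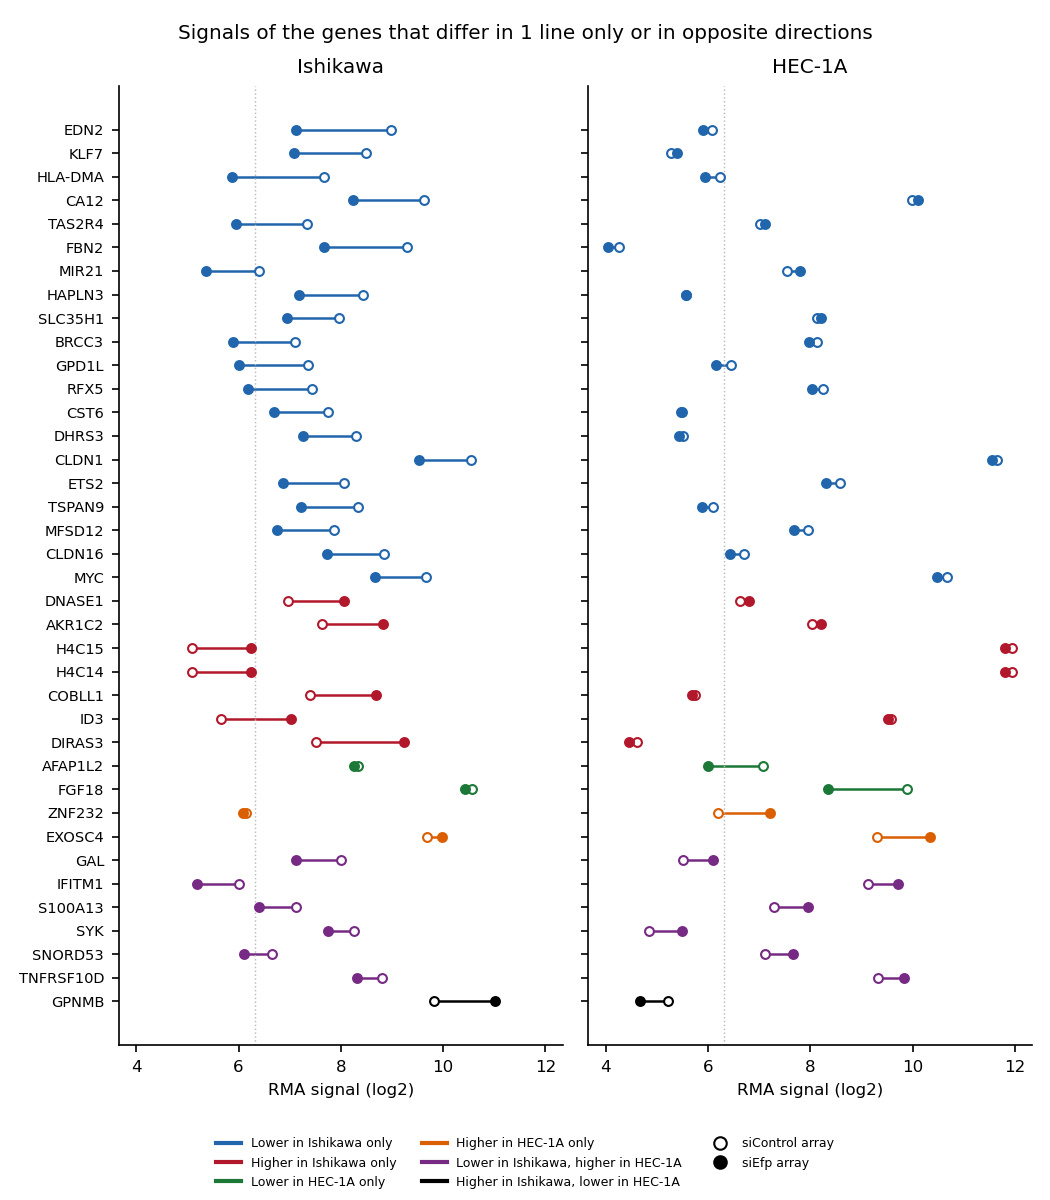
Log2 RMA signals of the 38 members on the 4 arrays, Ishikawa in the left panel and HEC-1A in the right, with open points for siControl and filled points for siEfp and a dotted line at the median of all genes, 6.31. Genes such as CA12, SLC35H1, CLDN1, ETS2 and MYC have signals above the dotted line in both panels, while FBN2, KLF7, CST6 and DHRS3 lie below it in both HEC-1A arrays.

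The promoters of the group were searched for motifs of the factors named above, from 250 bases before to 50 bases after the start of each gene in RefSeq GRCh38.p14, on both strands. Of the 20 genes, 15 had a promoter in the table. The palindromic estrogen response element, GGTCA and TGACC spaced by 3 bases, was in 0 of the 15, and it was in 0.0131% of the 7617 promoters of ranked genes and in 0.0659% of all 27305 promoters. The E-box CACGTG, which MYC binds with its partner MAX, was in 1 of the 15, that of FBN2, beside 11% of the ranked and 7.43% of all promoters. A motif of NF-κB was in 4 of the 15 (26.7%), those of CLDN1, HAPLN3, MFSD12 and ETS2, beside 12.8% of the ranked and 10.8% of all promoters. The same motif was in 6 of 22 promoters (27.3%) of the genes 2-fold lower in both lines, in 1 of 3 promoters of the genes of HEC-1A only, that of FGF18, and in none of the 7 promoters of the genes higher in Ishikawa only. Among the genes chosen by the line difference alone it was in 3 of 28 promoters (10.7%) at -1 or lower and in 1 of 12 (8.33%) at 1 or higher, no more often than in the ranked promoters at large. Of CLDN1, HAPLN3, MFSD12 and ETS2, only HAPLN3 kept its group under every alternative processing. With 15 promoters a single gene moves the share by several percentage points, and a match of letters is a description, not a binding site.

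For 3 of the 4 genes the promoter is printed with the NF-κB motif in capitals. ETS2 lies at chr21:38804933-38805232 on the plus strand, CLDN1 at chr3:190322397-190322696 on the minus strand and HAPLN3 at chr15:88895495-88895794 on the minus strand.
ETS2: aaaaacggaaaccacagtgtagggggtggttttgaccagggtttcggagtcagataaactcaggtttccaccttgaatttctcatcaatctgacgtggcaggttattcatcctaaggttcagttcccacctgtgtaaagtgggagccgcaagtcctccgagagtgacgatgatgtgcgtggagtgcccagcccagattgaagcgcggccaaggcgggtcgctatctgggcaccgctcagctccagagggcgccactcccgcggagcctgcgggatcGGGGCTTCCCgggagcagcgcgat
CLDN1: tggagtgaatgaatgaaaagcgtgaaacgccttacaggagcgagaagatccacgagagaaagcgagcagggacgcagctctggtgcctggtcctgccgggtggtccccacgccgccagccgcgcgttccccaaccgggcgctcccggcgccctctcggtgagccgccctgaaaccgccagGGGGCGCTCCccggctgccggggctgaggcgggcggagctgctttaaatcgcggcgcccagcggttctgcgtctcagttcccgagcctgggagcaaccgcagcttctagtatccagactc
HAPLN3: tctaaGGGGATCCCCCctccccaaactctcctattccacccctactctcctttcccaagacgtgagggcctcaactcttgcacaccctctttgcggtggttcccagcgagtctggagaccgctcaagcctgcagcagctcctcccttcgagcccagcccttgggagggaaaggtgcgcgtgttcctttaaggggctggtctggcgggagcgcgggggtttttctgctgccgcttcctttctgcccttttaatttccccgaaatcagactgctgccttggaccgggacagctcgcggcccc
In ETS2 the motif lies within the last 50 bases, which follow the start of the gene. In CLDN1 and HAPLN3 it lies before the start, and in HAPLN3 the capitals hold overlapping matches.

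The 7 genes higher in Ishikawa only had Ishikawa differences of 1.11 to 1.70 and HEC-1A differences of -0.15 to 0.18. DIRAS3 had the highest line difference of all ranked genes, 1.86. DIRAS3 encodes a Ras-like GTPase that is imprinted and restrains growth, and its signals were 7.52 and 9.22 in Ishikawa and 4.61 and 4.46 in HEC-1A. The HEC-1A signals were far below the median of all genes. ID3, a BMP-induced protein that blocks helix-loop-helix factors, showed the reverse order of levels, with 5.66 and 7.03 in Ishikawa and 9.58 and 9.52 in HEC-1A. Its relative ID2 was higher in both lines, with signals of 7.52 and 8.55 in Ishikawa and of 10.21 and 10.73 in HEC-1A, and ID2 had a line difference of 0.51.

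COBLL1, a relative of the actin nucleator cordon-bleu, had signals of 7.40 and 8.69 in Ishikawa and of 5.74 and 5.69 in HEC-1A. Both HEC-1A signals were below the median of all genes. AKR1C2, a reductase of 3-ketosteroids and a target of NRF2, had signals of 7.64 and 8.82 in Ishikawa and of 8.03 and 8.21 in HEC-1A. The AKR1C genes are close copies of each other, so that probes can bind more than 1 of them. DNASE1, a secreted endonuclease, had signals of 6.96 and 8.07 in Ishikawa and of 6.63 and 6.80 in HEC-1A. H4C14 and H4C15, identical copies of the histone H4 gene, had the same values on both probe sets and count as 1 measurement. Their signals were 5.09 and 6.24 in Ishikawa and 11.94 and 11.80 in HEC-1A, so that the levels of the lines were further apart than for any other member. Both Ishikawa signals were below the median of all genes, so that H4C14 and H4C15 were ranked through the signal of HEC-1A.

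In HEC-1A only, 2 genes were lower and 2 were higher. FGF18, a growth factor of the FGF8 subfamily, was bright in both control arrays, with signals of 10.56 and 10.42 in Ishikawa and of 9.89 and 8.34 in HEC-1A. The differences were -0.14 and -1.54, and the line difference of 1.40 was the largest of the 4 genes. AFAP1L2, an adaptor of Src and PI3-kinase signaling, had signals of 8.33 and 8.26 in Ishikawa and of 7.07 and 5.999 in HEC-1A. ZNF232, a zinc finger protein, had signals of 6.14 and 6.08 in Ishikawa and of 6.19 and 7.21 in HEC-1A. Only its HEC-1A siEfp signal was above the median of all genes, so that ZNF232 was ranked through that array. EXOSC4, a subunit of the RNA exosome, had signals of 9.68 and 9.97 in Ishikawa and of 9.31 and 10.34 in HEC-1A. Its Ishikawa difference of 0.29 was just under the limit, and EXOSC4 had the smallest line difference of all members in size, -0.73.

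Opposite differences of at least 0.5 in both lines were seen for 7 genes, 6 of them lower in Ishikawa and higher in HEC-1A. The 6 genes differed by -0.88 to -0.50 in Ishikawa and by 0.51 to 0.66 in HEC-1A, so that none of them was 2-fold in either line. For 4 of the 7 genes, both arrays of 1 line were below the all-gene median, which was HEC-1A for GAL, SYK and GPNMB and Ishikawa for IFITM1, so that they were ranked through the signal of the other line. GAL, which encodes the neuropeptide galanin, had signals of 8.004 and 7.13 in Ishikawa and of 5.51 and 6.10 in HEC-1A. IFITM1, an interferon-induced membrane protein that restricts virus entry, had signals of 6.01 and 5.19 in Ishikawa and of 9.13 and 9.72 in HEC-1A. S100A13, a calcium-binding protein that takes part in the release of FGF1, had signals of 7.11 and 6.41 in Ishikawa and of 7.29 and 7.95 in HEC-1A. For S100A13 the control signals of the lines were close, and the siEfp arrays stood on either side of them.

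SYK, a tyrosine kinase of immune receptor signaling, had signals of 8.25 and 7.74 in Ishikawa and of 4.84 and 5.50 in HEC-1A. TNFRSF10D, a decoy receptor of the death ligand TRAIL, had signals of 8.81 and 8.31 in Ishikawa and of 9.32 and 9.84 in HEC-1A. SNORD53, a small nucleolar RNA of the C/D class, had signals of 6.66 and 6.11 in Ishikawa and of 7.11 and 7.67 in HEC-1A. SYK and TNFRSF10D left the group when the arrays were normalized again. GPNMB, a membrane glycoprotein of lysosomes and melanosomes, was the 1 gene that differed the other way round, with signals of 9.83 and 11.01 in Ishikawa and of 5.21 and 4.66 in HEC-1A. Its differences were 1.18 and -0.55, and its line difference of 1.73 was second to that of DIRAS3.

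Of the 38 genes with a line difference of -1 or lower, 28 were lower in Ishikawa and higher in HEC-1A at any size, and 10 differed in the same direction in both lines. Choosing by the line difference favours opposite signs. Of all 9209 ranked genes, 1984 were lower in Ishikawa and higher in HEC-1A. The difference was larger in size in Ishikawa for 25 of the 38 genes and in HEC-1A for 13. PLAU, the urokinase-type plasminogen activator, had signals of 7.63 and 5.93 in Ishikawa and of 10.07 and 9.62 in HEC-1A. IGFBP3, a carrier of insulin-like growth factors, had signals of 10.13 and 8.48 in Ishikawa and of 6.62 and 6.16 in HEC-1A. Both genes were thus lower in both lines, and the Ishikawa differences, -1.70 and -1.66, were larger in size than those of HEC-1A, -0.45 and -0.47. PLLP, a membrane protein of myelin and epithelia, differed by -0.28 in Ishikawa and by 0.98 in HEC-1A, and AGR2, a protein disulfide isomerase of secretory epithelia, by -0.33 and 0.87. PTK7, a receptor of planar cell polarity, differed by -0.86 and 0.37, and PHLDA2, an imprinted gene that restrains growth of the placenta, by -0.87 and 0.32. The HEC-1A signals of PTK7, 5.38 and 5.75, and the HEC-1A control signal of PLLP, 5.66, were below the median of all genes.

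Of the 14 genes with a line difference of 1 or higher, 12 were higher in Ishikawa and lower in HEC-1A at any size. The same held for 1304 of all 9209 ranked genes, and here too the choice favours opposite signs. IL15RA, the receptor chain that presents interleukin 15, differed by 0.30 in Ishikawa and by -0.83 in HEC-1A. PXDC1 differed by 0.91 and -0.33.

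**Figure D3:**
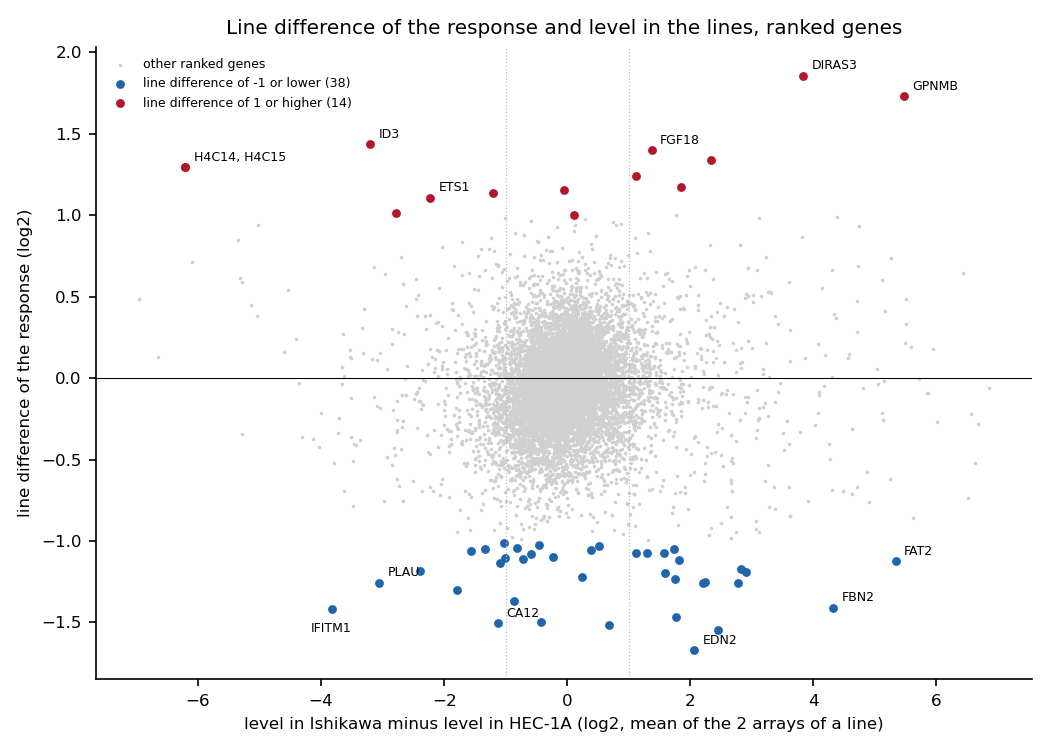
Line difference of the response (y axis, log2) against the level in Ishikawa minus the level in HEC-1A (x axis, log2, mean of the 2 arrays of each line) for 9209 ranked genes, with dotted lines at 2-fold. The 38 blue points at -1 or lower and the 14 red points at 1 or higher lie on both sides of the dotted lines, from H4C14 and H4C15, which are brighter in HEC-1A, to GPNMB and FAT2, which are brighter in Ishikawa.

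The genes at both ends of the line difference often had unequal levels in the lines. Of the 38 genes at -1 or lower, 17 were at least 2-fold brighter in Ishikawa, 10 were at least 2-fold brighter in HEC-1A and 11 were within 2-fold. Of the 14 genes at 1 or higher, 6 were brighter in Ishikawa and 6 in HEC-1A. Among all ranked genes 7.38% were at least 2-fold brighter in Ishikawa and 7.05% in HEC-1A. FAT2, a protocadherin with signals of 10.61 and 9.66 in Ishikawa and of 4.70 and 4.88 in HEC-1A, is an example at the low end, with HEC-1A signals far below the median of all genes.

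Gene lists were described by the counts and the median of their ranked members, a restriction chosen after seeing the data, beside the same over all ranked genes, of which 54.4% were lower in Ishikawa, 47.1% were lower in HEC-1A and 58.0% had a line difference below 0. The median difference of all ranked genes was -0.03 in Ishikawa and 0.01 in HEC-1A, so that the sign of a difference nearer to 0 than this depends on the centring. Among the lists with at least 20 ranked members, ribosome biogenesis differed most between the lines by its median line difference. This list holds nucleolar factors that make and process ribosomal RNA, and also MYC, the driver of ribosome genes described above. Its 61 ranked members had a median difference of -0.23 in Ishikawa and of 0.03 in HEC-1A. In Ishikawa 52 of the 61 were lower, in HEC-1A 22, and 51 (83.6%) had a line difference below 0. The size was small for most members, since 3, MYC among them, were 2-fold lower in Ishikawa and 1 in HEC-1A, beside 1.17% and 0.445% of all ranked genes. Over all 62 measured members the medians were -0.22 and 0.03.

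Within ribosome biogenesis, the lowest line difference was that of MYC, which is also a member of the group lower in Ishikawa only. BYSL, a factor of the small subunit, differed by -0.50 in Ishikawa and by 0.28 in HEC-1A. DKC1, the pseudouridine synthase dyskerin, differed by -0.40 and 0.26, and the assembly factors RRS1 and NOP16 by -0.29 and -0.44 in Ishikawa and by 0.33 and 0.18 in HEC-1A. Of the subunits of RNA polymerase I, which transcribes ribosomal RNA, 5 were on the list, and 4 of them were lower in Ishikawa than in HEC-1A relative to control. POLR1B had signals of 8.58 and 7.32 in Ishikawa and of 9.18 and 8.53 in HEC-1A, and was lower in both lines by differences of -1.26 and -0.65. POLR1A, POLR1C and POLR1E differed by -0.34, -0.39 and -0.45 in Ishikawa and by 0.02, 0.03 and 0.10 in HEC-1A. POLR1F went the other way, with differences of 0.24 and 0.19. The helicase DDX21 was the 1 member 2-fold lower in both lines, at -1.18 and -1.02, and the abundant nucleolar proteins NPM1 and FBL differed by 0.02 and 0.01 in Ishikawa and by 0.07 and 0.10 in HEC-1A. At the other end RRP9 differed by -0.07 and -0.48, and WDR74 by -0.25 and -0.54.

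**Figure D4:**
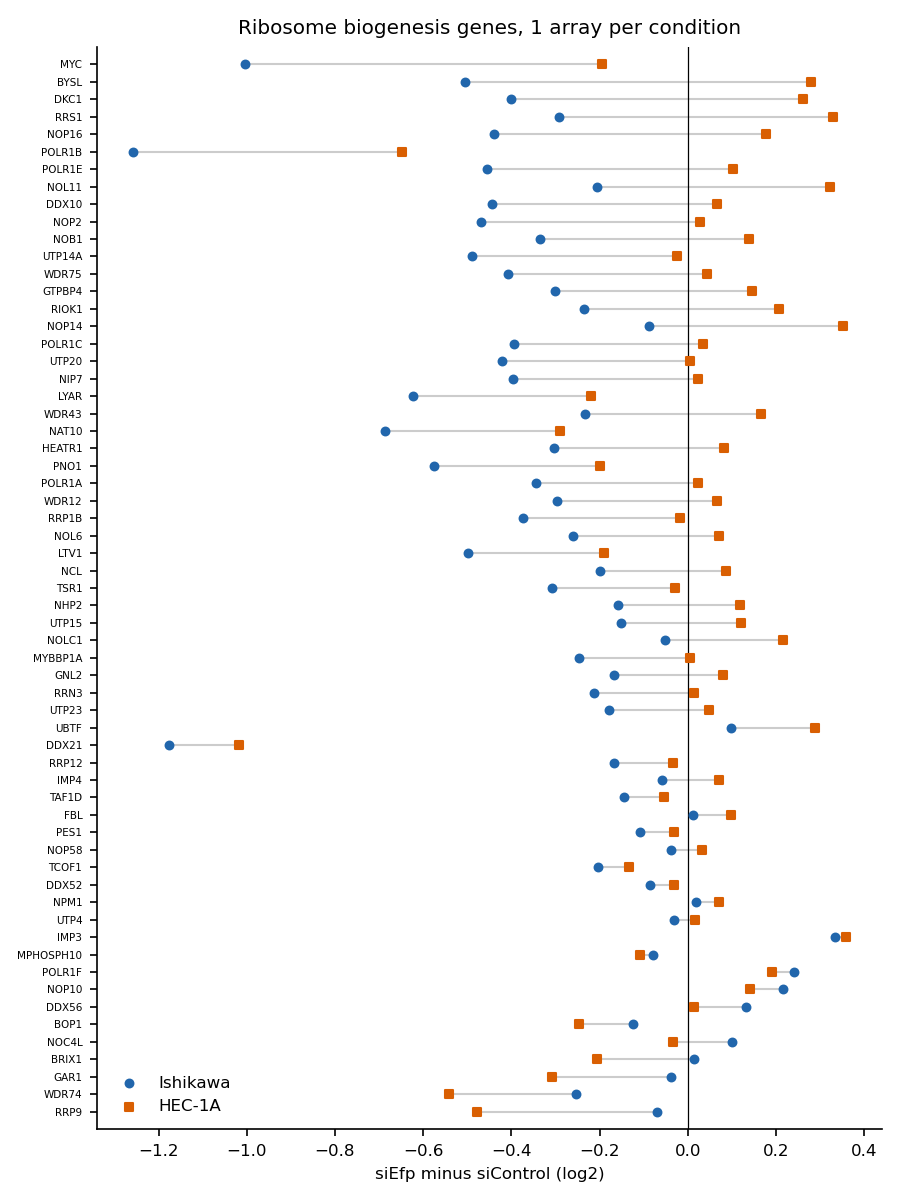
The siEfp minus siControl difference (x axis, log2) of the 61 ranked ribosome biogenesis genes in Ishikawa (blue circles) and HEC-1A (orange squares), ordered by the line difference, with 1 array per condition. In Ishikawa 52 of the 61 points lie below 0 and in HEC-1A 22, with POLR1B, DDX21 and MYC furthest to the left.

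The cell-cycle lists had small shifts of the same sign. Of 55 ranked genes of G2 phase and mitosis, 32 were lower in Ishikawa and 17 in HEC-1A, with median differences of -0.06 and 0.13, and 43 (78.2%) had a line difference below 0. PTTG1, the separase inhibitor securin, differed by -0.13 in Ishikawa and by 0.54 in HEC-1A, and the phosphatase CDC25C by -0.28 and 0.31. HMMR, a spindle protein and hyaluronan receptor, was higher by 0.86 and 0.54. Of 54 ranked genes of G1 and S phase, 36 (66.7%) had a line difference below 0, and the median differences were 0.01 and 0.12. The replication factors ORC1 and MCM7 differed by -0.68 and -0.17 in Ishikawa and by -0.05 and 0.37 in HEC-1A. No gene of these lists reached a line difference of 1 in size.

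The NRF2 list leaned the opposite way. Of 28 ranked NRF2 targets, genes of the antioxidant response, 5 (17.9%) had a line difference below 0, and the median differences were 0.20 in Ishikawa and 0.08 in HEC-1A, and 0.14 and 0.06 over all 30 measured members. Beside AKR1C2, glutathione reductase (GSR) differed by 0.50 in Ishikawa and by -0.04 in HEC-1A. GCLC, an enzyme of glutathione synthesis, differed by 0.51 and 0.09, and the exporter ABCC2 was the clearest exception with -0.80 and 0.12. Of 56 measured interferon response genes only 13 were ranked, and 3 of the 13 had a line difference below 0, with median differences of -0.03 in Ishikawa and of -0.26 in HEC-1A. Over all 56 the medians were -0.04 and -0.06 and the median line difference was 0.01, so that the list as a whole did not lean to either side. RIGI, which encodes the sensor RIG-I that Efp modifies, had signals of 7.51 and 7.95 in Ishikawa and of 7.54 and 7.15 in HEC-1A. The control signals were thus level and the differences, 0.44 and -0.39, ran in opposite directions below the threshold of 0.5. OAS3, a sensor of double-stranded RNA, differed by 0.09 and -0.55, with Ishikawa signals of 4.81 and 4.89, below the median of all genes. IFITM1 of the opposite group was the exception in the other direction.

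NF-κB genes differed between the lines in both directions. The 18 ranked components had median differences of -0.10 in Ishikawa and of -0.01 in HEC-1A, and 12 of them (66.7%) had a line difference below 0. The kinase MAP3K14 (NIK) had signals of 7.62 and 6.88 in Ishikawa and of 7.50 and 7.47 in HEC-1A, and TAB3, an adaptor of the kinase TAK1, differed by -1.13 and -0.66. RELB, a subunit of the noncanonical pathway, differed by 0.28 and -0.29, and its Ishikawa signals, 5.83 and 6.10, were below the median of all genes. The 19 ranked target genes had medians of -0.15 and -0.17, with 12 of 19 (63.2%) below 0 in line difference, and over all 43 measured targets the medians were -0.08 and -0.12.

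Mesenchymal and matrix genes were mostly lower in both lines. Of 44 ranked members, 36 were lower in each line, with median differences of -0.44 in Ishikawa and of -0.19 in HEC-1A, and over all 70 measured members the medians were -0.20 and -0.11. The line difference was below 0 for 25 of the 44 (56.8%), beside 58.0% of all ranked genes. Its median was -0.10 over the 44, beside -0.05 over all ranked genes, and -0.02 over the 70, beside -0.01 over all genes. The mean over the 70 was -0.145, beside -0.011 over all genes. A line difference of -1 or lower was seen for 3 of the 44, beside 0.413% of all ranked genes. Of the ranked members 7 were 2-fold lower in Ishikawa and 3 in HEC-1A, where the shares of all ranked genes were 1.17% and 0.445%. FBN2, PLAU and IGFBP3 had the lowest line differences of the list and N-cadherin (CDH2), at 0.39 and -0.10, the highest. TNC, which encodes tenascin C, differed by -0.86 and -0.19, and the integrin chains ITGA2 and ITGB4 by -0.67 and -0.72 in Ishikawa and by 0.14 and 0.08 in HEC-1A. The HEC-1A signals of TNC, 4.68 and 4.50, were below the median of all genes. Estrogen response genes held CA12 and AGR2 at the low end, yet the 23 ranked members had a median line difference of -0.05, the same as all ranked genes. Notch signaling held JAG1, a ligand, and HES1, a target, which differed by -0.61 and -0.60 in Ishikawa and by 0.17 and 0.03 in HEC-1A, while RBPJ, the DNA-binding factor of the pathway, differed by 0.56 and -0.15.

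**Figure D5:**
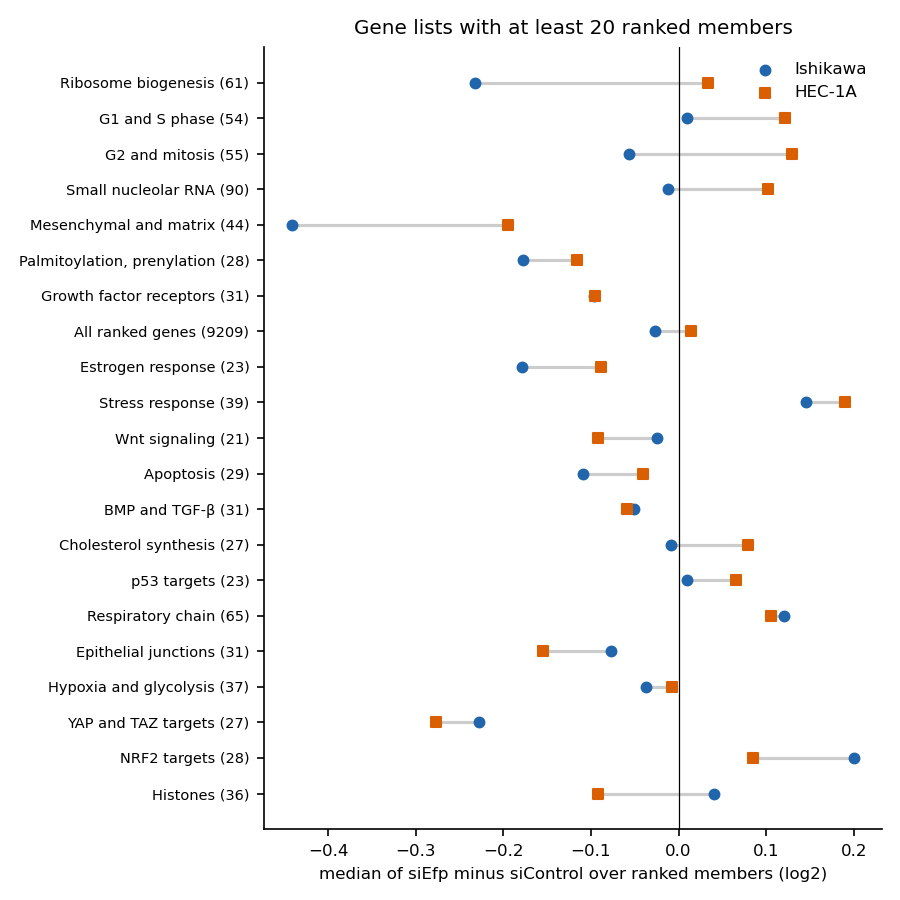
Median siEfp minus siControl difference (x axis, log2) over the ranked members of each gene list in Ishikawa (blue circles) and HEC-1A (orange squares), with the number of ranked members in brackets and lists ordered by their median line difference. Only lists with at least 20 ranked members are drawn. Among these ribosome biogenesis, at -0.23 and 0.03, stands at one end, the mesenchymal and matrix list is lowest in Ishikawa at -0.44, and the row of all 9209 ranked genes gives the background.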

How the data were processed

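Total RNA (150 ng per the labels) of 4 cultures was hybridised to Affymetrix arrays, 1 array per condition. The deposited values are log2 signals of probe sets. The submitters' processing notes name Affymetrix Expression Console and RMA, with versions and genome build not given in the sources used here. In RMA the probe values of all arrays are brought to one distribution and then summarized, which leaves the probe set values close in distribution but not equal, and a shift of most genes together would largely be removed. Dim probe sets show compressed differences. The microarray methods name the Human Exon 1.0 ST array, whereas the probe set numbers belong to the Human Gene 1.0 ST array. Array medians were 5.63 to 5.69, and the arrays of 1 line correlated at 0.992 and 0.993 over probe sets. Arrays have no read depth, and precision is limited by their number.

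Of 33297 probe sets, 19460 had exactly 1 gene symbol and were averaged per gene to 18417 genes, and 769 genes had several probe sets. In RefSeq GRCh38.p14, 19429 of the 19460 matched and 0 symbols differed. Samples were grouped by their titles, differences were taken within a line, and the thresholds are those given with the results. No test was made, since a model of line, treatment and their interaction over 4 arrays leaves no residual degree of freedom. The grouping was tested on simulated data with little noise and with planted differences well past the thresholds. That checks the code and not the groups found here. Genes named were drawn from the 15 at each end of the line difference, the members, up to 3 ranked members at each end of a list and the genes named by the study. All members are described, but not all genes of the other sets, and IL6ST is among the study's genes left out. HLA-DMB, CIITA, VMP1, FAT2, MYD88, H4C16 and further members of ribosome biogenesis and other lists were named after their values were seen. The 32 lists come from general knowledge and share members. The members, lists and alternatives were chosen with earlier results of these data known. Python 3.11.15, numpy 2.4.6, pandas 2.3.3 and matplotlib 3.10.9 were used. Alternatives were centring, a second quantile normalization, the brightest probe set, other filters on dim genes, HEC-1A differences scaled to the SD of Ishikawa, a 1.5-fold threshold and limits of 0.2 and 0.5 in the other line. Lists restricted to ranked members and H4C14 with H4C15 as 1 gene were chosen after seeing the data. The sequences of the siRNA duplexes were not used here.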

Additional observations from a re-analysis of the deposited data

Results flagged for a closer look

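The 7 genes with opposite differences were set apart since the only siEfp array of one line moved one way and that of the other line the opposite way. The difference between the lines was not tested, and with 1 array per condition it could not be. The line differences were -1.46 for GAL, -1.42 for IFITM1, -1.37 for S100A13, -1.17 for SYK, -1.11 for SNORD53, -1.01 for TNFRSF10D and 1.73 for GPNMB. A size of at least 1 follows from how these genes were chosen.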

How the results depend on the processing

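In the order of line difference of -1 or lower, line difference of 1 or higher, lower in Ishikawa only, higher in Ishikawa only, lower in HEC-1A only, higher in HEC-1A only and opposite, the counts were 38, 14, 20, 7, 2, 2 and 7. With no filter on dim genes they were 104, 56, 41, 15, 5, 6 and 33. With a filter on the brightest array in place of the mean they were 67, 30, 34, 12, 4, 4 and 17. With a 1.5-fold threshold they were 332, 171, 175, 60, 50, 58 and 90. With HEC-1A differences scaled to the SD of Ishikawa, 27 genes had a line difference of 1 or higher, 6 were lower and 7 higher in HEC-1A only, and 11 were opposite. A limit of 0.2 in the other line left 11 lower in Ishikawa only and 1 higher in HEC-1A only, and a limit of 0.5 gave 4 higher in HEC-1A only. The other 30 counts stayed within 1.5 times. Of 868 line differences of named genes, 862 moved by less than the SD of genes of like signal, and of 224 list values (32 of them means) 213 moved by less than 0.1. No line difference of at least 1 in size changed sign. A sign change was seen for 6 values of named genes and 18 of lists, all with a size of at most 0.0843 for genes and 0.0704 for lists. Of the 38 members, 32 were in the same group after a second quantile normalization, which lost CLDN1, DHRS3, MYC, SLC35H1, SYK and TNFRSF10D. Scaled HEC-1A differences also kept 32 and lost CLDN16, ETS2, GPD1L, HLA-DMA, MFSD12 and MIR21. The limit of 0.2 kept 28 and lost the same genes as the scaling, as well as EXOSC4, FBN2, RFX5 and TSPAN9. The looser filters and thresholds add genes by construction, and for the other changes the cause was not tested. No paired analysis was possible because each group has 1 array. Dim signals limit what can be read in 1 line, and the replicate error is unknown.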

Other observations

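PTGS2 and MYD88 lay below the signal filter and were 2-fold lower in Ishikawa but not in HEC-1A, where their signals were dim. PTGS2, which encodes the inducible cyclooxygenase COX-2, had signals of 6.33 and 5.20 in Ishikawa and of 3.56 and 4.05 in HEC-1A. MYD88, the adaptor of Toll-like and interleukin 1 receptors, had signals of 7.02 and 5.67 in Ishikawa and of 5.22 and 5.32 in HEC-1A. The line differences were -1.62 and -1.45. Other unranked genes of inflammation did not follow this pattern, with differences of -0.36 and -0.23 for IL6, of -0.79 and -0.76 for IRF1 and of -0.19 and -0.42 for LIF. IL18, a cytokine of the interleukin 1 family, was also below the filter but lower in both lines, with differences of -1.54 and -0.94. A further histone H4 gene, H4C16, went the other way from H4C14 and H4C15, with signals of 6.40 and 5.20 in Ishikawa and of 3.01 and 2.96 in HEC-1A.

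Small nucleolar RNA genes held 90 ranked members, of which 60 (66.7%) had a line difference below 0, beside 58.0% of all ranked genes. In HEC-1A 3 of the 90 were 2-fold higher, beside 0.109% of all ranked genes. SNORA60 was higher in both lines, by 1.13 and 1.86. SNORA52 differed by 0.42 in Ishikawa and by 1.19 in HEC-1A. Immediate early and receptor genes of growth factor signaling included EGR1, which differed by -0.40 in Ishikawa and by 0.62 in HEC-1A, and the receptor kinases AXL, at 0.57 and -0.28, and MET, at 0.51 and -0.15. The Ishikawa signals of AXL, 4.58 and 5.15, were below the median of all genes. SCGB2A1, a secretoglobin of glandular epithelia, differed by 0.75 and -0.24, and its HEC-1A signals, 5.37 and 5.13, were below that median too.

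Of the 13837 probe sets with no symbol or several symbols, 4306 were bright enough on average to pass the signal filter. A line difference of -1 or lower was seen for 39 of them and of 1 or higher for 41, and they were not named.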
